A study of Mus musculus with 3 samples.

Results

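The CCN genes *Ccn1* to *Ccn5* were followed through the healing of mouse skin wounds. The 5 members were taken by gene symbol from the 32285 genes of each matrix as the members of the named family. The samples were wounded skin of C57BL/6J mice, with 1 section at each of Days 3, 7 and 14 after injury, read on Visium slides. On such a slide each barcoded spot captures polyadenylated RNA from the small piece of tissue above it, so that a spot can hold several cells of different types. All sections carried the same genotype and the same injury, and no section of unwounded skin was analysed here. With 1 section per day there is no replicate and no test between days, and the day, the animal and the slide cannot be told apart. Every interval below is a 95% interval for counting error only.

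CCN proteins are secreted into the extracellular matrix, where they bind integrins, proteoglycans and growth factors and so change how a cell responds to its surroundings. *Ccn1* and *Ccn2* are quickly induced by serum, by mechanical load through YAP and TEAD, and, for *Ccn2*, by TGF-β. *Ccn3* has been described as acting against *Ccn2* in fibrosis, *Ccn4* is a Wnt target, and *Ccn5* lacks the C-terminal cystine knot domain that the other members have.

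The genes lie on 4 chromosomes and all are annotated as protein coding (GRCm38). *Ccn1* is at chr3:145646976-145649981 on the minus strand and *Ccn2* at chr10:24595442-24598683 on the plus strand. *Ccn3* (chr15:54745702-54754039) and *Ccn4* (chr15:66891320-66923201) share chromosome 15, both on the plus strand, and *Ccn5* is at chr2:163820861-163833146 on the plus strand. Of the 5 genes, 1 had an entry in the RefSeq promoter table (GRCm38.p6). Its 250 bases before the *Ccn1* start (chr3:145649986-145650235, minus strand) are shown because the CCN genes are read below beside YAP, TEAD and immediate early genes, and 3 of the 4 motifs searched on both strands are in capitals.
Ccn1: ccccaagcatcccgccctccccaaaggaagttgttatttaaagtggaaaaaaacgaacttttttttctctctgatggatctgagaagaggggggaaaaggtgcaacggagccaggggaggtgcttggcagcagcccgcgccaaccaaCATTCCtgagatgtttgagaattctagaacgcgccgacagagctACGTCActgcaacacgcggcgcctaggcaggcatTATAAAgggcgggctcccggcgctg
The capitals mark, in order, the TEAD letters GGAATG read on the other strand (103 bases before the start), the CRE letters TGACGT on the other strand (59 bases before) and the TATA letters TATAAA (25 bases before), and none of these overlap. The AP-1 letters TGANTCA had 0 matches. Of 32851 promoter windows of the table, 12.6% hold the TEAD letters, 6.47% the CRE letters, 12.4% the TATA letters and 6.75% the AP-1 letters.

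The files marked 664, 549 and 697 spots on Days 3, 7 and 14, with 1772259, 4442962 and 4611723 unique molecules (UMIs) and a median of 1513, 6687 and 4827 UMIs per marked spot. All 3 slides carry the same 4992 spot barcodes. All 10 epidermal markers had at least 10 UMIs in each section. Of 10 hair follicle markers listed, 9 were in the matrix, and all 9 had as many on Day 14 and 0 on either earlier day. Over all genes tested, the log2 ratio of Day 7 to Day 3 had a median of 0.04, that of Day 14 to Day 7 one of 0.13 and that of Day 14 to Day 3 one of 0.18, and the ratios below are read beside these shifts.

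The CCN genes together held nearly the same share of each section, and their make-up turned over. They summed to 422, 1033 and 992 UMIs on Days 3, 7 and 14, or 238 (216 to 262), 233 (219 to 247) and 215 (202 to 229) UMIs per 1000000 UMIs (CPM). *Ccn2* held 36.5% of all CCN UMIs on Day 3, *Ccn4* 34.7% on Day 7 and *Ccn2* again 38.7% on Day 14. *Ccn3* held 5.21% on Day 3, 21.3% on Day 7 and 23.1% on Day 14. UMIs are not divided by transcript length here, so these shares compare captured molecules and not levels per length.

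*Ccn1*, an integrin ligand and immediate early gene, was lower on each later day, at 62.1 CPM (51.0 to 74.8; 110 UMIs), 42.5 CPM (36.7 to 49.1; 189 UMIs) and 28.4 CPM (23.8 to 33.7; 131 UMIs). The 3 intervals did not overlap. *Ccn2*, the member best known from fibrosis, was at 86.9 CPM (73.7 to 102; 154 UMIs), 34.2 CPM (29.0 to 40.1; 152 UMIs) and 83.3 CPM (75.1 to 92.0; 384 UMIs), low in the Day 7 section and at overlapping levels in the sections before and after. *Ccn5* was at 62.6 CPM (51.5 to 75.4; 111 UMIs), 25.7 CPM (21.2 to 30.8; 114 UMIs) and 28.8 CPM (24.1 to 34.2; 133 UMIs), high on Day 3 and with overlapping intervals on Days 7 and 14.

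*Ccn3* and *Ccn4* were the low members of the Day 3 section. *Ccn3* was at 12.4 CPM (7.78 to 18.8; 22 UMIs), 49.5 CPM (43.2 to 56.5; 220 UMIs) and 49.7 CPM (43.4 to 56.5; 229 UMIs), a level that was higher on Day 7 and the same within its interval on Day 14. *Ccn4* was at 14.1 CPM (9.13 to 20.8; 25 UMIs), 80.6 CPM (72.4 to 89.4; 358 UMIs) and 24.9 CPM (20.6 to 29.9; 115 UMIs), with its high level on Day 7. In pooled spots, fewer cells of a type and less RNA per cell cannot be told apart.

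**Figure D1:**
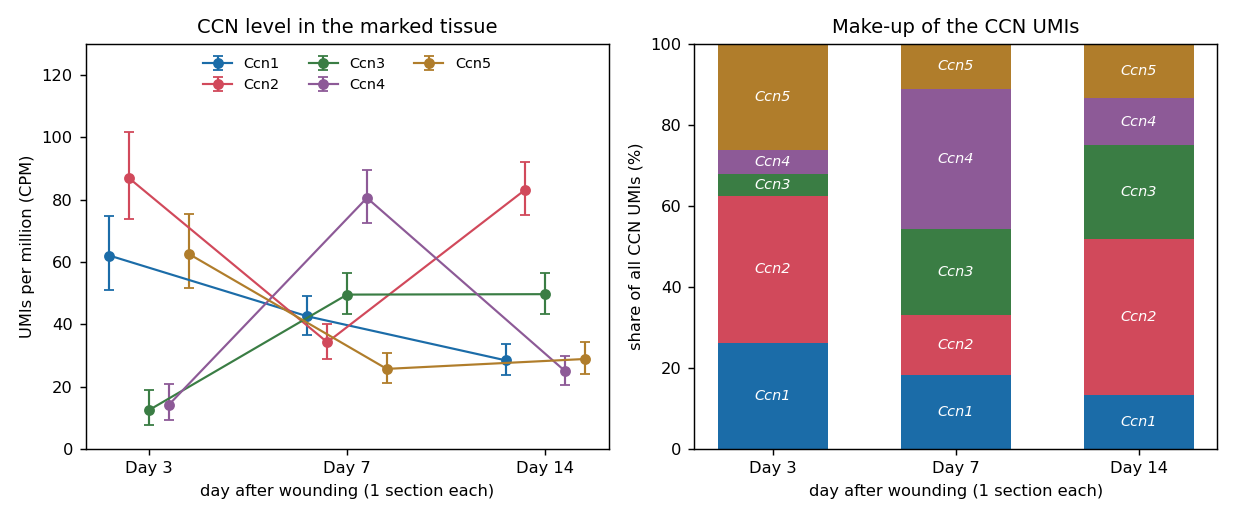
The left panel plots the level of each CCN gene (CPM over marked spots, with 95% counting intervals) by day, and the right panel the share of all CCN UMIs held by each gene (%). *Ccn4* stands highest on Day 7 at 80.6 CPM, where *Ccn2* is at 34.2 CPM, while the 5 genes together stay between 215 and 238 CPM.

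From Day 3 to Day 7, 2 of the 5 members were at least 2-fold higher, where 8.04% of the 10541 genes tested were, and 2 were at least 2-fold lower, where 6.49% were. *Ccn4* was higher by 2.51 (1.93 to 3.16) on the log2 scale and *Ccn3* by 2.0 (1.36 to 2.70), while the log2 ratio was -1.34 (-1.68 to -1.01) for *Ccn2* and -1.29 (-1.68 to -0.90) for *Ccn5*. From Day 7 to Day 14, 1 member was at least 2-fold higher (10.9% of 11746 genes tested) and 1 lower (7.34%). These were *Ccn2*, at a log2 ratio of 1.28 (1.01 to 1.56), and *Ccn4*, at -1.69 (-2.01 to -1.39). Day 14 over Day 3 left 1 member higher (14.4% of 10955 genes) and 2 lower (6.83%), namely *Ccn3* at 2.0 (1.37 to 2.70), *Ccn1* at -1.13 (-1.5 to -0.75) and *Ccn5* at -1.12 (-1.49 to -0.74). Both lower calls were lost (2 members higher and 0 lower) when the dermal fibroblast markers were the denominator, when spot CPM was averaged and when all spots of the slide were summed. All 5 members passed the minimum of 50 UMIs over the pair of sections in each comparison, and the comparisons share sections. The lower *Ccn1* level of Day 14 against Day 7 (log2 ratio -0.58) turned to 0.17 when UMIs of the dermal fibroblast markers were the denominator, and no member was then at least 2-fold lower in that comparison.

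Spots also differed in depth, so each marked spot was thinned to 1000 UMIs, which left 426, 525 and 679 spots. *Ccn4* then appeared in 0.704% of spots on Day 3 (3 spots), 7.81% on Day 7 (41 spots) and 1.77% on Day 14 (12 spots), against 3.16%, 37.0% and 14.1% of the marked spots before thinning. In thinned muscle-rich spots, taken for comparison, *Ccn4* was in 0 of 38, 0 of 47 and 1 of 65 spots, where the upper 95% bounds were 9.25%, 7.55% and 8.28%. The Day 7 share of *Ccn4* had an interval of 5.66% to 10.4%, which overlaps what the few muscle-rich spots allow. Muscle-rich spots had a median of 1448, 2265.5 and 2847 UMIs before thinning, against 2073, 7673 and 5426.5 in the other spots.

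To place the members in the tissue, each section's spots of at least 500 UMIs (520, 539 and 689) were ranked by the share of their UMIs from each of 14 marker lists, none of which holds a CCN gene. The top 10% formed the list-rich spots, which are places and not cell types. Granulation tissue-rich spots, for example, were rich in *Postn*, *Tnc*, *Cthrc1*, *Col12a1* and other matrix genes of healing wounds. *Ccn3* (22 UMIs) and *Ccn4* (25 UMIs) fell under the minimum of 50 UMIs within the Day 3 section and are given there as values only. The highest Day 3 level of *Ccn3* was in muscle-rich spots, at 51.5 CPM (14.0 to 132) from 4 of its 22 UMIs.

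On Day 3 *Ccn5* was concentrated in the granulation tissue-rich spots, at 211 CPM (157 to 279) against 39.5 CPM elsewhere, a 5.35-fold level (3.60 to 7.91). *Ccn1* was at 123 CPM (82.1 to 176) there against 51.4 CPM, a 2.39-fold level (1.5 to 3.70). These were 2 of the 3 members above the minimum whose interval lay above 1, where 18.4% of 5637 genes did. *Ccn4* held 8 of its 25 UMIs in the same spots and *Ccn3* 0 of its 22. In the same spots an interval below 1 was found for 0 of the 3 members, where 15.3% of genes had one. A patch of 15 touching spots among them, outlined after the maps were seen, held 165236 of the set's 236552 UMIs. It held 40 of the 50 *Ccn5* and 24 of the 29 *Ccn1* UMIs of the set. Its spots had a median of 9419 UMIs, against 2221.5 over the set. Another patch, of 6 spots, held 9 *Ccn5* and 0 *Ccn1* UMIs. *Ccn2* was high in other list-rich spots. It was at 136 CPM (100 to 181) against 75.9 CPM in sebaceous gland-rich spots (1.79-fold, 1.25 to 2.55) and at 127 CPM (91.1 to 174) against 79.1 CPM in dermal fibroblast-rich spots (1.61-fold, 1.09 to 2.33), sets that shared 26.9% of their spots. *Ccn5* was the reverse in sebaceous gland-rich spots, at 14.5 CPM against 74.5 CPM (0.195-fold, 0.0619 to 0.469). *Ccn2* had 0 UMIs in muscle-rich spots against 91.8 CPM elsewhere, at least 2.38-fold lower if the muscle-rich spots together are given the 3 counts that a count of 0 allows. Of all genes, 14.1% lay above 1 and 14.4% below it in sebaceous gland-rich spots, 9.42% above it in dermal fibroblast-rich spots and 23% below it in muscle-rich spots.

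On Day 7 the granulation tissue-rich spots split the family. *Ccn4* was at 143 CPM (120 to 169) there against 63.3 CPM elsewhere (2.27-fold, 1.82 to 2.82) and *Ccn1* at 69.6 CPM (54.0 to 88.4) against 35.1 CPM (1.99-fold, 1.45 to 2.70). *Ccn3* was at 35.3 CPM (24.5 to 49.4) against 53.2 CPM (0.664-fold, 0.447 to 0.962) and *Ccn5* at 15.6 CPM (8.72 to 25.7) against 28.5 CPM (0.548-fold, 0.295 to 0.948). So 2 of 5 members lay above 1, where 12.8% of 9422 genes did, and 2 below, where 16.5% did. *Ccn2* was at 28.1 CPM against 35.9 CPM, and its interval held 1. With spots shared with another list removed, a step added after the data were seen, the *Ccn4* interval stayed above 1 without the dermal fibroblast-rich, the fascial fibroblast-rich or the macrophage-rich spots. That of *Ccn1* held 1 without the dermal fibroblast-rich spots (1.56-fold, 0.957 to 2.45). *Ccn3* was 0.910-fold (0.567 to 1.41) without the macrophage-rich spots. Without the fascial fibroblast-rich spots it kept its ratio (0.670-fold, 0.427 to 1.02), but the interval then held 1. Without the dermal fibroblast-rich spots it was 0.406-fold (0.172 to 0.823). *Ccn5* was 0.446-fold (0.141 to 1.08; 5 UMIs) without the dermal fibroblast-rich spots. It was 0.641-fold (0.308 to 1.21; 11 UMIs) without the macrophage-rich spots. Both *Ccn5* ratios stayed below 1, and their intervals held 1 with fewer UMIs left. The granulation tissue-rich spots were deeper than the rest on this day, with a median of 17414.5 against 6044 UMIs, and the part of depth in these ratios was not tested. The *Ccn3* ratio was not stable to where the line was drawn: with 20% of spots taken as rich, its log2 ratio was 0.21 in place of -0.59.

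*Ccn3* was at 166 CPM (123 to 220) on Day 7 in fascial fibroblast-rich spots, those rich in *Pi16*, *Dpp4* and *Sema3c*, against 41.0 CPM elsewhere (4.06-fold, 2.89 to 5.61), and *Ccn5* was also higher there, at 54.3 CPM against 23.6 CPM (2.30-fold, 1.26 to 3.92). These were 2 of 5 members, where 3.81% of genes lay above 1 in the same spots. *Ccn3* was 2.51-fold (1.86 to 3.36) higher in macrophage-rich spots and 2.29-fold (1.70 to 3.05) higher in dermal fibroblast-rich spots, where 10.7% and 9.04% of genes lay above 1. Dermal fibroblast-rich and granulation tissue-rich spots shared 44.4% of their number. With the spots shared with the granulation tissue-rich set removed, *Ccn3* was at 158 CPM in dermal fibroblast-rich spots (3.65-fold, 2.57 to 5.11). The higher level rested on spots that are rich in both fibroblast lists: *Ccn3* was 1.69-fold (0.853 to 3.06) in fascial fibroblast-rich spots without the dermal ones and 1.37-fold (0.926 to 1.99) in dermal fibroblast-rich spots without the fascial ones. In macrophage-rich spots it stayed above 1 without any 1 of the other 3 sets, at 2.18-fold to 3.67-fold. *Ccn1* and *Ccn4* were 1.74-fold (1.2 to 2.46) and 1.86-fold (1.44 to 2.39) higher in contractile cell-rich spots, a place that shared 44.4% of its spots with the granulation tissue-rich set, where *Ccn3* was 0.511-fold (0.292 to 0.840), and 8.61% of genes lay above 1 there and 9.24% below. The higher *Ccn5* level in dermal and in fascial fibroblast-rich spots no longer had an interval above 1 once the other list's spots were removed. The log2 ratio was -0.056 (-0.93 to 0.73) in dermal without fascial spots. In fascial without dermal spots it was -2.13 (-7.45 to 0.39) from 1 UMI, too few to read a direction.

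On Day 14 *Ccn3* had the highest ratio of the 5 members in granulation tissue-rich spots. It was at 202 CPM (161 to 249) there against 34.0 CPM elsewhere (5.93-fold, 4.49 to 7.80), and *Ccn4* at 53.3 CPM against 22.0 CPM (2.42-fold, 1.46 to 3.86) and *Ccn5* at 51.0 CPM against 26.6 CPM (1.92-fold, 1.16 to 3.05) were higher too. These were 3 of 5 members, where 8.8% of 10029 genes lay above 1. *Ccn3* was also higher in dermal fibroblast-rich (5.47-fold, 4.12 to 7.22), fascial fibroblast-rich (5.33-fold, 3.83 to 7.32) and macrophage-rich spots (4.16-fold, 3.06 to 5.60), and lower in epidermis-rich (0.353-fold, 0.198 to 0.587), sebaceous gland-rich (0.514-fold, 0.299 to 0.832) and hair follicle-rich spots (0.569-fold, 0.360 to 0.865). Of all genes, 8.1%, 4.9% and 7.94% lay above 1 in the first 3 of these places, and 12.6%, 6.07% and 8.38% below it in the other 3. In all, the *Ccn3* interval lay above 1 in 7 of the 14 places and below it in 4. The higher places also included neutrophil-rich (29 UMIs), endothelium-rich (24 UMIs) and Schwann cell-rich spots (34 UMIs). There 4.06%, 4.85% and 4.06% of genes lay above 1. *Ccn3* was also lower in muscle-rich spots (1 UMI), where 31.9% of genes lay below 1. *Ccn2* was spread more evenly, with 97.3 CPM in granulation tissue-rich, 82.9 CPM in epidermis-rich and 87 CPM in hair follicle-rich spots, and its interval lay off 1 in muscle-rich (21.1 CPM, 0.246-fold) and neutrophil-rich spots (43.8 CPM, 0.505-fold), where 31.9% and 4.16% of genes lay below 1. *Ccn1* had an interval that held 1 in each of the 14 places. The granulation tissue-rich and dermal fibroblast-rich sets shared 52.2% of their spots. In granulation tissue-rich spots without the shared ones, the *Ccn4* log2 ratio was -0.16 (-2.07 to 1.25; 4 UMIs). *Ccn5* was 1.25-fold there (0.446 to 2.81; 6 UMIs). Both intervals held no difference, and these counts are too few to tell whether the higher levels rested on the shared spots. Without the macrophage-rich spots *Ccn5* was 1.42-fold (0.633 to 2.82), and without the fascial fibroblast-rich ones 1.77-fold (0.993 to 2.98). *Ccn3* stayed higher in granulation tissue-rich spots without the dermal fibroblast-rich ones, at 2.81-fold (1.61 to 4.62), whereas in fascial fibroblast-rich spots without the dermal ones it was 1.73-fold (0.811 to 3.28).

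**Figure D2:**
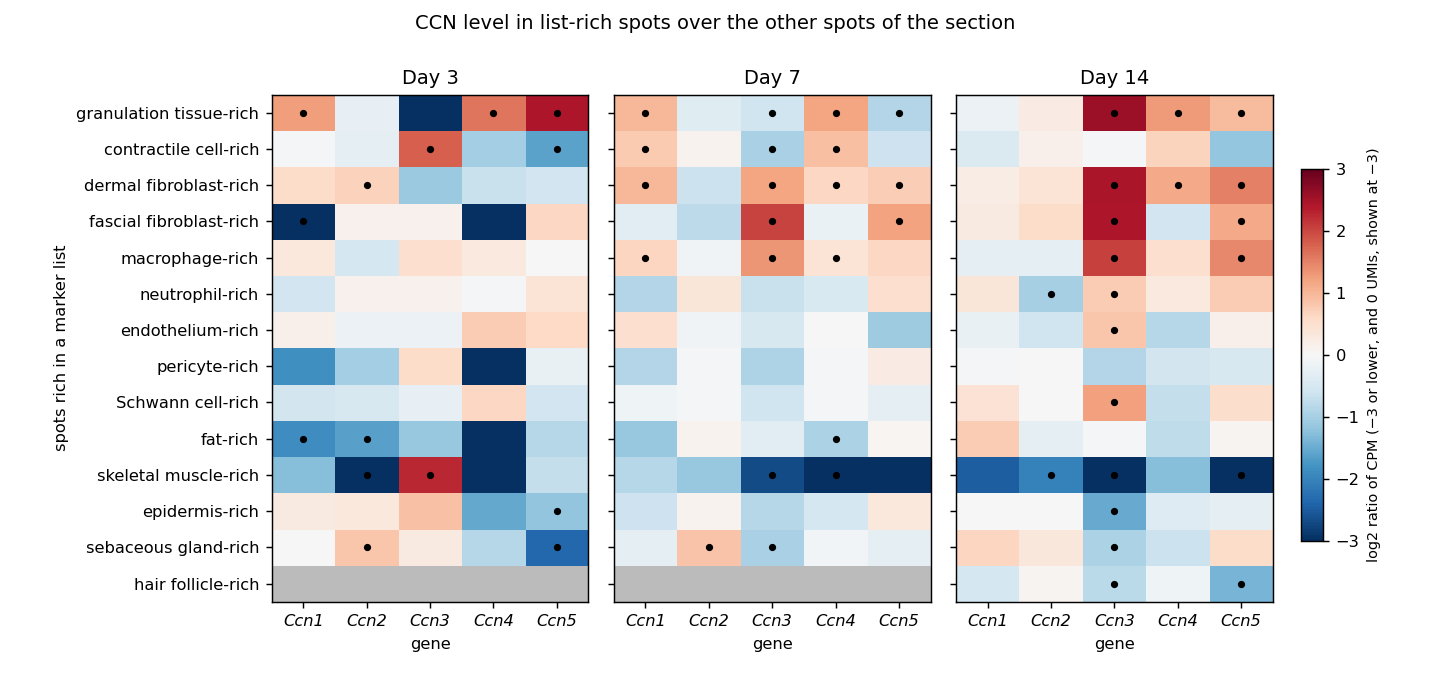
Each cell gives the log2 ratio of a CCN gene's CPM in list-rich spots over the other spots of that section, for Days 3, 7 and 14, with a dot where the 95% counting interval lies off 1 and grey where the hair follicle list was not used. The granulation tissue row is red for *Ccn5* on Day 3 (5.35-fold), for *Ccn4* on Day 7 (2.27-fold) and for *Ccn3* on Day 14 (5.93-fold), and the muscle row is mostly blue, with *Ccn3* on Day 3 (4 UMIs) as an exception.

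The maps of UMIs per spot showed Day 14 *Ccn3* UMIs dense in a piece of the granulation tissue-rich area. All granulation tissue-rich spots together held 87 of its 229 UMIs. The area was therefore cut into patches of touching spots, after the maps had been seen. The largest patch held 37 spots, 2.0 pitches (median distance, where a pitch is the step between neighbouring spots) from the nearest epidermis-rich spot. The next held 15 spots at 6.08 pitches. *Ccn3* had 5 UMIs in the first, 22.4 CPM (7.27 to 52.2), and 71 UMIs in the second, 514 CPM (401 to 648). Both patches were alike in the granulation tissue list, at 4128 and 4445 CPM, and in the dermal fibroblast list, at 28563 and 29001 CPM. They differed in the fascial fibroblast list, at 381 and 1535 CPM, in the epidermis list, at 7715 and 5314 CPM, and in depth, at medians of 5522 and 10174 UMIs per spot. *Ccn2* was at 58.2 CPM (31.0 to 99.5) and 152 CPM (94.1 to 232) in the 2 patches, *Ccn5* at 26.9 CPM (9.86 to 58.5) and 94.1 CPM (50.1 to 161) and *Ccn4* at 62.7 CPM (34.3 to 105) and 36.2 CPM (11.8 to 84.5). Without the 15-spot patch, *Ccn3* in the remaining 54 granulation tissue-rich spots was at 54.5 CPM, a 1.60-fold level (0.893 to 2.70), and without the 37-spot patch it was at 394 CPM (11.6-fold, 8.72 to 15.3). *Ccn5* without the 15-spot patch was 1.15-fold (0.514 to 2.27). *Ccn4* kept its ratio without it, at 2.79-fold (1.58 to 4.65). A further patch, of 5 spots, held 7 *Ccn3* UMIs, 386 CPM (155 to 796), with the fascial fibroblast list at 2483 CPM.

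**Figure D3:**
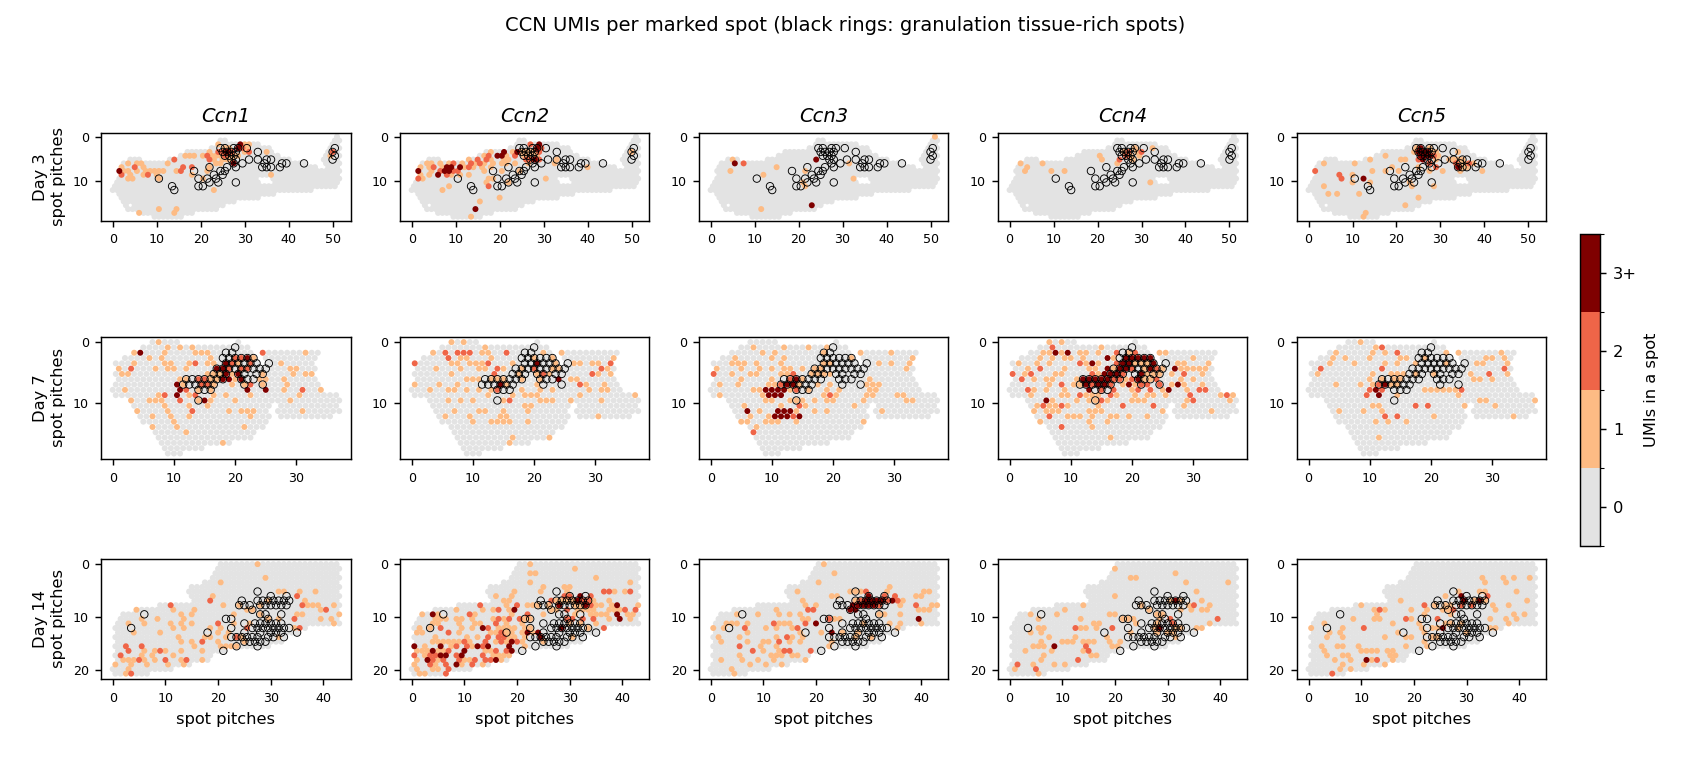
Each panel maps 1 CCN gene in 1 section, with a dot for each marked spot at its place in spot pitches, coloured by UMIs of the gene (0, 1, 2, or 3 and more), and black rings on granulation tissue-rich spots. *Ccn4* fills the ringed area on Day 7. The spots with 3 and more *Ccn3* UMIs lie mostly at 1 end of it and below it on Day 7. On Day 14 they lie mostly in and near the 15-spot upper patch.

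Single spots rich in *Ccn3* lay together. On Day 7, 18 marked spots had at least 3 *Ccn3* UMIs, with 45.0% of all *Ccn3* UMIs and 6.29% of all UMIs, and 10 and 6 of them formed 2 clusters of touching spots. Of the 10-spot cluster, 9 were dermal fibroblast-rich and 3 granulation tissue-rich, and it also held 21 *Ccn5* UMIs. Of the 6-spot cluster, 9.35 pitches (median) from an epidermis-rich spot, 4 were macrophage-rich and 2 fascial fibroblast-rich. Both clusters lay toward the same end of the section. Split at the median position of the granulation tissue-rich spots along the length of the section, *Ccn3* was at 65.6 CPM on 1 side and 20.1 CPM on the other (3.25-fold, 2.23 to 4.89), whereas the ratio was 0.898 (0.723 to 1.12) for *Ccn4* and 1.09 (0.798 to 1.49) for *Ccn1*. On Day 14, 16 spots had at least 3 *Ccn3* UMIs, with 38.9% of its UMIs, and 12 of them touched. *Ccn2* had more such spots on that day (29), and no more than 3 of them touched. Touching spots were not particular to *Ccn3*. Of the spots with at least 3 UMIs, 24 of 35 formed 1 cluster for *Ccn4* on Day 7 and 8 of 10 for *Ccn5* on Day 3. The spots were picked by their own UMIs of the gene, which raises the share they hold. The Day 7 *Ccn3* clusters were deep, with medians of 16635.5 and 11918 UMIs per spot against 6687 over all marked spots.

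The levels were also read by distance from the granulation tissue-rich spots. *Ccn5* on Day 3 was at 211 CPM at distance 0, 73.5 CPM within 2 pitches, 17.8 CPM beyond 2 to 5 pitches and 22.6 CPM beyond 5. *Ccn4* on Day 7 was at 143, 78.4, 55.1 and 58.1 CPM over the same steps. *Ccn3* on Day 7 was at 35.3, 64.1, 69.6 and 30.9 CPM, and this order depended on the 10% of spots taken as rich, since with 20% the level at distance 0 was 6.43-fold (1.72 to 54.0) that beyond 5 pitches in place of 1.14-fold (0.703 to 1.85). On Day 14 *Ccn3* was at 202, 52.8, 27.7 and 28.3 CPM. *Ccn2* on Day 3 was highest beyond 2 to 5 pitches, at 135 CPM, against 76.1 CPM at distance 0. Measured from the epidermis-rich spots, *Ccn3* was highest beyond 5 pitches on both later days. It was at 28.5, 20.7, 33.4 and 86.6 CPM in the Day 7 section, where the intervals of the nearer steps overlapped. In the Day 14 section it was at 19.8, 33.7, 43.1 and 92.5 CPM, while *Ccn2* on Day 14 stayed between 71.8 and 97.3 CPM.

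**Figure D4:**
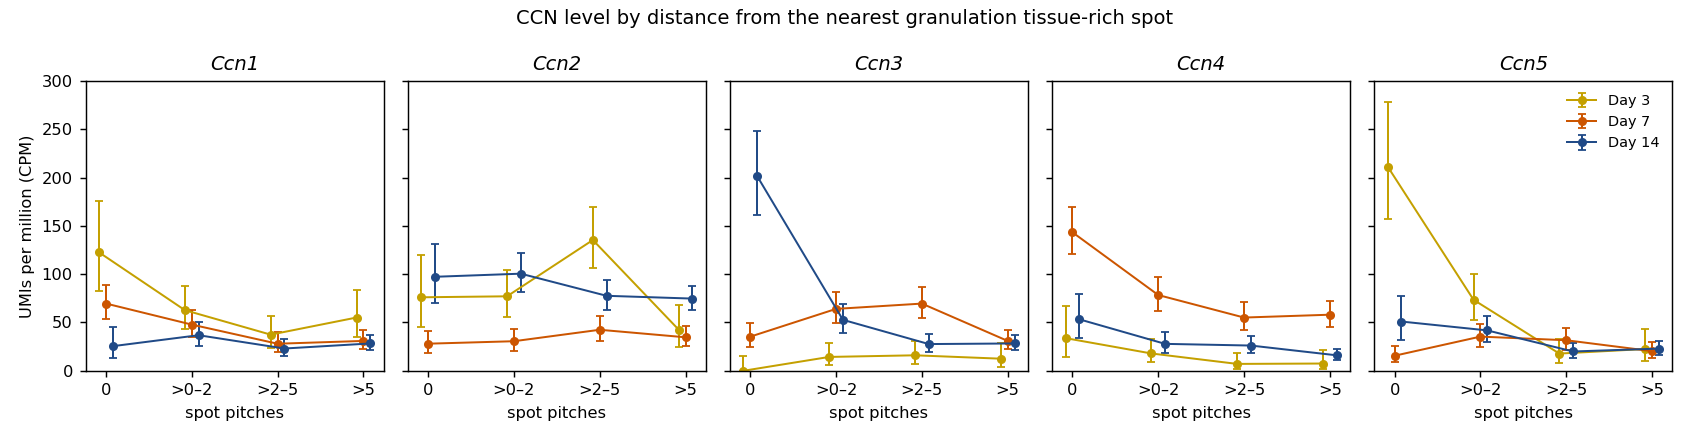
Each panel plots the level of 1 CCN gene (CPM with 95% counting intervals) in 4 steps of distance, in spot pitches, from the nearest granulation tissue-rich spot, with 1 line per day. *Ccn5* on Day 3 (211 CPM), *Ccn4* on Day 7 (143 CPM) and *Ccn3* on Day 14 (202 CPM) are highest at distance 0, and *Ccn3* on Day 7 is highest beyond 2 to 5 pitches (69.6 CPM).

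*Ccn3* was then read against *Ccn2*, its proposed counterpart. Per *Ccn2* UMI the Day 3 section held 0.143 *Ccn3* UMIs (0.0870 to 0.224), the Day 7 section 1.45 (1.17 to 1.79) and the Day 14 section 0.596 (0.504 to 0.704). Summed over the marked spots, the balance thus lay on the side of *Ccn2*, then of *Ccn3*, then again of *Ccn2*. The ratio was 10.1-fold (6.09 to 17.4) higher on Day 7 than on Day 3 and 0.412-fold (0.314 to 0.541) on Day 14 against Day 7. On Day 7 the *Ccn3* clusters of 10 and 6 spots, picked by their *Ccn3* UMIs, held 58 and 32 of the 220 *Ccn3* UMIs. They held 3 and 2 of the 152 *Ccn2* UMIs, so the Day 7 ratio drew in part on few spots, and it was not read without them. Within a section the ratio also moved with place. On Day 7 it was 8.17 (3.49 to 23.3) in fascial fibroblast-rich spots, 3.89 (2.33 to 6.83) in dermal fibroblast-rich spots and 0.458 (0.203 to 0.972) in sebaceous gland-rich spots. On Day 14 it was 2.07 (1.42 to 3.07) in granulation tissue-rich spots, 2.38 (1.49 to 3.93) in macrophage-rich spots and 0.239 (0.129 to 0.417) in epidermis-rich spots. On Day 3 the muscle-rich spots held 4 *Ccn3* and 0 *Ccn2* UMIs (lower bound of the ratio 0.660), and no place with at least 1 UMI of each gene had a ratio above 0.5.

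Across single spots, Pearson's r between *Ccn3* and *Ccn2* was -0.06 over 520 spots on Day 3, 0.03 over 539 on Day 7 and 0.12 over 689 on Day 14, values too weak to read in counts this sparse, from spots that share a section and differ in depth. With each spot summed with its neighbours, r was -0.06, 0.01 and 0.35 by day, so the Day 14 value depended on the scale at which spots were read. *Ccn3* was found in 34.6% of spots with *Ccn2* and 20.6% of spots without it on Day 7, and in 27.9% and 14.9% on Day 14. At 1000 UMIs per spot this became 1 of 22 spots (4.55%) against 3.58% on Day 7 and 1 of 48 spots (2.08%) against 3.33% on Day 14, with intervals that overlapped.

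**Figure D5:**
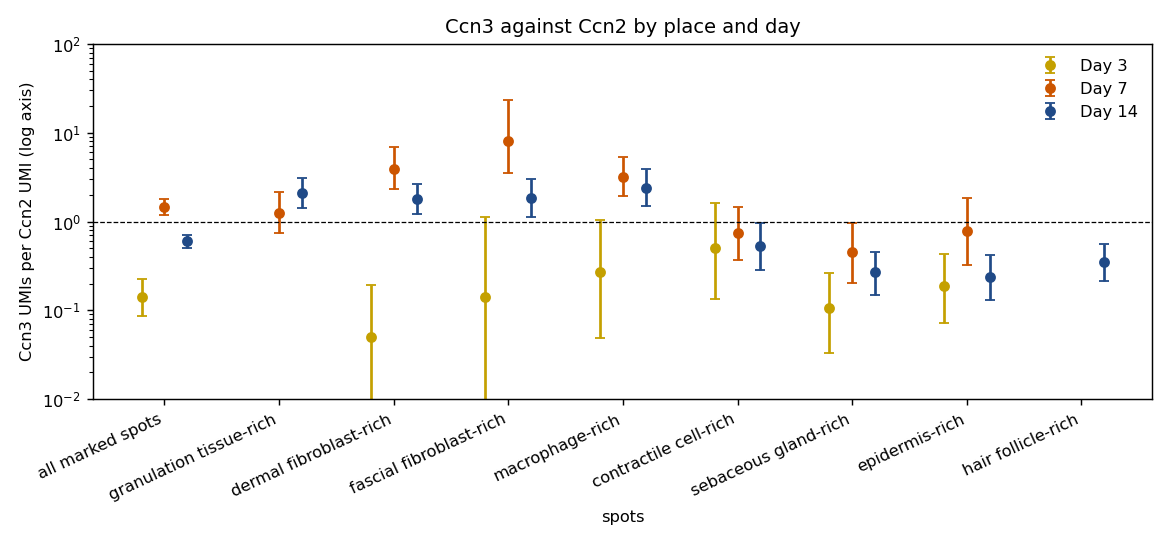
Points give *Ccn3* UMIs per *Ccn2* UMI (log axis, 95% counting intervals) over all marked spots and in a choice of list-rich places, by day. Muscle-rich, endothelium-rich, pericyte-rich, neutrophil-rich, fat-rich and Schwann cell-rich spots are not drawn. A drawn place has no point on a day with 0 UMIs of either gene, as for the Day 3 granulation tissue-rich spots (0 *Ccn3* UMIs). Over all marked spots the ratio is 0.143, 1.45 and 0.596 on Days 3, 7 and 14, and on Days 7 and 14 the fibroblast-rich and macrophage-rich places lie above 1 and the sebaceous gland-rich spots below it.

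The genes whose values followed each member most closely across spots were, for *Ccn5* on Day 3, *Sfrp2*, *Cthrc1* and *Mif* (r of 0.26, 0.24 and 0.23). For *Ccn4* on Day 7 they were *Sparc*, *Tmsb10* and *Arpc1b* (0.32, 0.31 and 0.30), and for *Ccn3* on Day 14 *Col1a2*, *Col1a1* and *Mfap4* (0.25, 0.24 and 0.23). For *Ccn3* on Day 7 they were *Prrx1*, *Spon2* and *Rpl39* (each 0.22). *Ccn2* had *Mfap4*, *Gja1* and *Tgfbi* on Day 3 (0.31, 0.30 and 0.30) and *Col1a2*, *Krt27* and *Irx2* on Day 14 (each 0.24), a fibroblast and a hair follicle gene side by side. *Ccn1* had *Qsox1* on Day 3 (0.30), *Sparc* on Day 7 (0.25) and *Cfd* on Day 14 (0.20). All these r are weak, and the highest r after thinning among the genes named here was 0.22 (*Mfap4* with *Ccn2*, Day 3). Among the members themselves, the pair *Ccn3* and *Ccn5* had r of 0.13 on Day 7 and 0.15 on Day 14, and 0.31 and 0.44 when each spot was summed with its neighbours. Moran's I, which is high where neighbouring spots are alike, was 0.268 for *Ccn3* on Day 7 and 0.196 on Day 14, above 97.9% and 94.3% of genes with at least 100 UMIs, and 0.214 for *Ccn5* on Day 3 (above 88.5%). For *Ccn1* it went from 0.168 in the Day 3 section to 0.101 and -0.00337 in the later ones.

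The counts of the gene lists below are to be read beside the genes tested as a whole, of which 8.04% were at least 2-fold higher and 6.49% lower on Day 7 than on Day 3, 10.9% and 7.34% on Day 14 than on Day 7, and 14.4% and 6.83% on Day 14 than on Day 3. Of 5 YAP, TAZ and TEAD genes tested (median log2 ratio 0.40), 1 was at least 2-fold higher on Day 7 than on Day 3, *Tead2* at 30.2 against 13.5 CPM, and none of 6 was 2-fold higher or lower from Day 7 to Day 14, where *Yap1* was at 55.4 and 96.5 CPM. Among other YAP target genes (median log2 ratio -0.24), 0 of 17 were higher and 2 lower on Day 7 than on Day 3, *Nt5e* at 6.75 against 33.3 CPM and *Crim1* at 24.1 against 51.9 CPM. From Day 7 to Day 14, 2 of 19 were higher, *Ajuba* (54.2 against 21.8 CPM) and *Ptpn14* (72.0 against 32.4 CPM), and 3 lower, among them *Igfbp3* (119 against 325 CPM).

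Immediate early genes, the class of *Ccn1*, were mostly lower on Day 7 than on Day 3: 9 of 11 tested were at least 2-fold lower and 0 higher (median log2 ratio -1.50), with *Ier3* at 28.4 against 175 CPM and *Fosb* at 6.98 against 36.7 CPM. From Day 7 to Day 14 (median 0.80), 3 of 11 were higher, *Egr2* (25.8 against 6.98 CPM), *Klf4* (151 against 54.2 CPM) and *Egr1* (67.4 against 31.1 CPM), and 0 lower, while *Ccn1* was lower. The TGF-β target genes, the class of *Ccn2*, lay in both directions on Day 7 (median -0.33), with 4 of 12 higher than on Day 3, among them *Postn* (3692 against 239.8 CPM) and *Acta2* (474 against 93.1 CPM), and 4 lower, among them *Tgfbi* (235 against 475 CPM). *Ccn2* itself was lower. From Day 7 to Day 14 (median -0.70), 5 of 13 were lower and 0 higher, whereas *Ccn2* was higher.

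Wnt target genes, the class of *Ccn4*, were higher on Day 14 in 4 of 9 tested against Day 7 (median log2 ratio 0.69) and in 6 of 8 against Day 3 (1.51), with 0 lower, and *Lef1* was at 7.34, 3.60 and 51.4 CPM on Days 3, 7 and 14. *Ccn4* was higher by 2.51 on the log2 scale on Day 7 against Day 3, where 2 of 5 tested Wnt target genes were at least 2-fold higher (*Nkd1* and *Lgr5*), and had a log2 ratio of -1.69 on Day 14 against Day 7. *Lef1* and several genes of this list also serve the hair follicle, whose markers were detected on Day 14 alone, and their part in these counts was not tested.

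Of the genes for CCN receptors, the integrin subunits of leukocytes were lower after Day 3: *Itgam* was at 110, 21.2 and 13.4 CPM and *Itgb2* at 124, 48.4 and 33.0 CPM. In all, 3 of 12 receptor genes were at least 2-fold lower on Day 7 than on Day 3 and 0 higher (median log2 ratio -0.40). From Day 7 to Day 14, *Notch1* (44.8 to 143 CPM), *Sdc4* (124 to 350 CPM) and *Lrp6* (27.2 to 55.3 CPM) were higher and *Itga5* (96.6 to 35.3 CPM) and *Itgb3* (26.6 to 12.8 CPM) lower. *Itgb1*, which pairs with many α subunits, was at 292, 376 and 199 CPM.

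Spots outside the marked ones held 1703210, 6457066 and 4715272 UMIs on Days 3, 7 and 14, about as many as the marked spots or, on Day 7, more, so the marked spots hold only a part of what the slides captured. On Day 3, all 3 members above the minimum were lower outside, where 41.2% of 7998 genes were, with *Ccn5* at 17 against 62.6 CPM and *Ccn2* at 63.4 against 86.9 CPM. On Day 7 all 5 were lower outside (49.3% of genes), from *Ccn3* at 19.4 against 49.5 CPM to *Ccn5* at 14.9 against 25.7 CPM. On Day 14 *Ccn2*, *Ccn3* and *Ccn5* were lower (61.3% of genes) and the intervals of *Ccn1* and *Ccn4* held 1. *Ccn3* per *Ccn2* UMI outside was 0.194, 1.0 and 0.407 on Days 3, 7 and 14, in the same order of days as in the marked spots.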

How the data were processed

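Visium sections of mouse skin wounds were analysed, 1 each from Days 3, 7 and 14. Per the labels, the authors processed the reads with Space Ranger 1.3.0 against mm10 and deposited UMI counts per gene and spot, with spots marked as tissue, and the study describes its displayed spots as chosen for a region of interest. These deposited counts are not normalized. The members and all gene lists were chosen with earlier results of these data known.

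UMIs were summed over marked spots and divided by all UMIs there (CPM), with exact Poisson intervals for levels and exact conditional binomial intervals for ratios (Python 3.11.15, numpy 2.4.6, scipy 1.17.1). They cover counting error only, spots were not treated as replicates and no p-value was computed. Genes needed 50 UMIs over the spots compared. List-rich spots were the 10% of spots (at least 500 UMIs) with the highest share of list UMIs, and Pearson's r was taken on log(1 + UMIs per 10000) for genes with at least 100 UMIs. Spots were thinned to 1000 UMIs where shares of spots were compared. Places were called higher or lower only where the interval lay off 1, and not every such place is named. Partners were the 3 genes of highest r, and up to 3 genes per direction were named in a pathway list, those past 2-fold with the interval bound farthest from no change. The division of spots into patches, clusters and sides was chosen after the maps were seen. The interval of the ratio between days was tested on Poisson counts simulated from pooled means, which hold no differences between spots. Places, distances, correlations, patches and clusters were not tested on simulated data. Alternatives used edgeR 4.0.16 (TMM) and DESeq2 1.42.0 (size factors) for scaling only, in R 4.3.3. No columns of the authors' own comparisons are in the files.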

Additional observations from a re-analysis of the deposited data

Results flagged for a closer look

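The level of 2 members in granulation tissue-rich spots against the other spots of the section pointed in different directions on different days. For *Ccn3* the log2 ratio was -0.59 on Day 7 and 2.57 on Day 14. *Ccn5* had log2 ratios of 2.42 (Day 3), -0.87 (Day 7) and 0.94 (Day 14). The difference between days was not tested, since each day is 1 section.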

How the results depend on the processing

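Of 432 recomputed values, 340 kept their reading, 85 moved beyond the counting interval or by over 1.5 times and 7 turned direction. Scaling by TMM or DESeq2 factors, spots of at least 500 UMIs and a denominator without mitochondrial, haemoglobin and muscle genes moved no main value. Per dermal fibroblast UMI, *Ccn1* for Day 14 over Day 7 turned to 0.17, and the other members moved to 2.04 (*Ccn2*), 0.76 (*Ccn3*), -0.93 (*Ccn4*) and 0.93 (*Ccn5*), with 0 members at least 2-fold lower. For Day 14 over Day 3, the same denominator gave -0.55 (*Ccn1*), 0.52 (*Ccn2*) and -0.54 (*Ccn5*), with 2 members higher and 0 lower. The mean of spot CPM gave -0.80 (*Ccn2*) and 1.03 (*Ccn3*) for Day 7 over Day 3, with 1 member lower. For Day 14 over Day 3 it gave -0.66 (*Ccn1*), 0.28 (*Ccn2*), 1.12 (*Ccn3*) and 1.57 (*Ccn4*), with 2 higher and 0 lower, and it gave 0.367 *Ccn3* per *Ccn2* on Day 3. All spots of the slide gave 1.36 (*Ccn3*) for Day 7 over Day 3. From Day 7 to Day 14 they gave 1.59 (*Ccn2*), 0.30 (*Ccn3*) and -1.15 (*Ccn4*), and from Day 3 to Day 14 -0.73 (*Ccn5*), with 2 higher and 0 lower. The cause was not tested.

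Among places, *Ccn3* in granulation tissue-rich spots on Day 7 turned to 0.21 with 20% of spots, and in neutrophil-rich spots on Day 14 to -0.17 with 5%. In settings chosen after seeing the data, spots of 2 lists were removed. *Ccn5* on Day 7 then turned to -0.056 (dermal without fascial) and -2.13 (fascial without dermal), and *Ccn4* on Day 14 to -0.16 (granulation tissue without dermal) and -1.12 (dermal without granulation tissue), each with an interval that held 0. The place held 1 UMI for -2.13, 4 for -0.16 and 2 for -1.12, too few to read a direction. With 5% of spots, 7 further ratios had a place with 0 UMIs and gave no value. The median r of the named partners was 0.348 by Spearman's rank on Day 3. Thinned, it was 0.119, 0.0694 and 0.0734 on Days 3, 7 and 14, and summed over neighbours 0.458, 0.295 and 0.387.

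No paired analysis was possible because each day is 1 section and the groups share a single replicate number. The Day 3 section limits *Ccn3* and *Ccn4* most, with 22 and 25 UMIs.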
